A study of Mus musculus with 4 samples.

Results

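The 42 genes described here encode the transport machinery of the primary cilium and the ciliary proteins around it. They were taken from a table of 14572 genes: 22 have a symbol made of Bbs or Ift and a number, and 20 others were named one by one. All 42 were in the table, and all 42 were among the 12687 genes that were tested. The libraries came from whole mouse retinas on the C57BL/6 strain, harvested 5 days after the pressure in the eye had been raised for 1 h (acute ocular hypertension). The wild-type group held the libraries P1041 and P1033, and the other group, labelled PLSCR1 transgenic, held TP-1036 and TP-1040, which the table marks only as cases. PLSCR1 is a phospholipid scramblase. All 4 libraries came from injured eyes, uninjured eyes were not analysed here, and the labels do not name the promoter of the transgene. The labels give an age of E14.5, which is hard to place beside an eye injury and a harvest 5 days later.

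The outer segment of a photoreceptor is a modified cilium, and everything in it is made in the cell body and carried through a narrow connecting cilium. Intraflagellar transport (IFT) trains, built of an IFT-B and an IFT-A complex, move along the axoneme, outward with kinesin-2 motors and back with a dynein. The BBSome, a coat of proteins named after Bardet-Biedl syndrome, rides on these trains and carries membrane proteins, and a separate set of carriers moves lipid-anchored proteins such as transducin and the rod phosphodiesterase. A gate at the base, the transition zone, controls entry, and inherited defects in many of these genes cause retinal degeneration.

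The promoters were looked at first, since RFX transcription factors switch on many ciliary genes through a site called the X-box. In mouse promoter sequences from RefSeq (build GRCm38.p6, 250 bases before to 50 after a start), 37 of the 42 genes had an entry, with 44 promoters in all. The core of the X-box, GTTGCC, was searched on both strands. It was found in 15 of the 44 promoters (34.1%), against 12.5% of all 32851 promoters of the same length. The full X-box was found in 3 of the 44 promoters (6.82%), against 1.53% of all promoters. The pattern for it was GTNRCC, a gap of up to 3 bases and RGYAAC (N any base, R A or G, Y C or T). Each of these 3 also held GTTGCC at the place of the X-box match, though the longer pattern can match without it. TAATCC, the core bound by the photoreceptor factor CRX, was in 3 of the 44 (6.82%), near its share of 7.06% in all promoters. These are matches of letters in one window and not mapped binding sites. The stretches below are those that hold GTTGCC wholly before the start, in 7 genes, each 60 bases long and read 5′ to 3′ on the strand of the gene, with the core in capitals (GGCAAC where it lies on the other strand).
Arl13b, chr16:62847189-62847248, minus strand: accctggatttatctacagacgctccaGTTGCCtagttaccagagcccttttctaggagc
Bbs7, chr3:36613478-36613537, minus strand: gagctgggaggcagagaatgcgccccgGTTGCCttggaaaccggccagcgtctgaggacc
Ift140, chr17:25015950-25016009, plus strand: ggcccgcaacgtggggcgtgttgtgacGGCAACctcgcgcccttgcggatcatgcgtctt
Ift27, chr15:78174082-78174141, minus strand: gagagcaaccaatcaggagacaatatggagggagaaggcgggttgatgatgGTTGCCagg
Ift57, chr16:49699193-49699252, plus strand: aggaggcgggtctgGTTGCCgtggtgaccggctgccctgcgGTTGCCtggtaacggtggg
Kif17, chr4:138262151-138262210, plus strand: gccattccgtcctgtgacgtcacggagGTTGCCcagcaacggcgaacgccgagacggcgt
Kif3a, chr11:53567244-53567303, plus strand: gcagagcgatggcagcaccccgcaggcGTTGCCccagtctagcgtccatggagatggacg

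Unc119 and Rpgrip1 had TAATCC and no GTTGCC in their promoters, in 1 of 3 promoters for Unc119. The third gene with TAATCC, Bbs1, held GTTGCC and a full X-box in the same promoter. The stretches of Unc119 and Rpgrip1 are shown with TAATCC in capitals as GGATTA, its reading on the other strand.
Unc119, chr11:78345439-78345498, plus strand: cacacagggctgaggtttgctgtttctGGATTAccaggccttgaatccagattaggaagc
Rpgrip1, chr14:52110843-52110902, plus strand: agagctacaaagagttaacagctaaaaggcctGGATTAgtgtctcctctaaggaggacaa

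The libraries held 28866589 to 41215649 estimated reads, of which the 42 genes took 0.629% to 0.695%. Their summed level was 6326 and 6265 CPM (reads per 1e6 reads, scaled by TMM) in wild type and 7062 and 6715 CPM in the transgenic-labelled libraries. Most of this level in every library came from Unc119, Tulp1, Rp1l1 and Rpgrip1. The transgenic-labelled mean was higher for Unc119 (1594 against 1294 CPM), Tulp1 (1306 against 1023 CPM) and Rp1l1 (708 against 668 CPM). For Rpgrip1 it was lower (503 against 619 CPM). Plscr1, the gene of the transgene label, had 7.98 and 8.36 CPM in wild type and 9.80 and 8.06 CPM in TP-1036 and TP-1040, a log2 difference of 0.13 ± 0.17 (SE). Whether reads of the transgene would be counted there is not stated. Rod markers were abundant in every library, with all 20 listed genes in the table and summed levels of 86364 and 78459 CPM in wild type and 96860.1 and 89471 CPM in the other group. Lens markers (4 of 12 listed genes in the table) summed to 41.5 and 37.2 CPM in wild type, 328 CPM in TP-1036 and 52.7 CPM in TP-1040, so that TP-1036 stood apart. Microglial markers (14 of 14) summed to 208 and 236 CPM in wild type, 542 CPM in TP-1036 and 371 CPM in TP-1040. Values were higher for 11 of 11 Müller glia markers (median log2 difference 0.42) and lower for 14 of 14 ganglion cell markers (-0.57) and 9 of 10 amacrine markers (-0.26). Over all genes tested, 50.4% were higher. The wild-type libraries themselves differed (P1033 minus P1041), with medians of 0.055, -0.50 and -0.25 for these lists. Without P1041 the group medians were 0.41, -0.27 and -0.13, and without P1033 they were 0.45, -0.79 and -0.37. None of these markers passed the adjusted threshold of 0.05 in edgeR, nor did any of the 12687 genes tested. DESeq2 passed Apoe (Müller glia, adjusted p = 5.90e-06), Scn1a and Slc17a6 (ganglion cells, 0.0118 and 0.0471) and Slc5a7 (amacrine, 0.0164). The other markers of these lists did not pass in DESeq2, where 0.544% of all genes did. At an unadjusted p of 0.05 the edgeR counts were 6 higher, 8 lower and 4 lower, against 4.72% higher and 4.15% lower of all genes tested. The part of these differences in the results below was not tested.

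Levels can be compared between genes only per length, as FPKM (CPM per kb of the longest transcript). The 42 genes ranged from 1.54 FPKM for Kif17 to 1048 FPKM for Unc119, with a median of 19.7 FPKM against 8.94 FPKM over all genes tested. The carriers and photoreceptor cilium proteins stood highest: Unc119 had 923 to 1234 FPKM over the 4 libraries and Tulp1 had 466 to 644 FPKM. Behind them came Arl3 (mean 147 FPKM), Arl6 (116 FPKM), Rp1l1 (102 FPKM), Pde6d (78.8 FPKM) and Rpgrip1 (71.0 FPKM). The 7 BBSome subunits among the 42 lay close together, from 23.3 FPKM for Bbs1 to 60 FPKM for Bbs7, a 2.58-fold range. Bbip1, a subunit outside the 42, was lower at 16.6 FPKM. The 11 IFT-B genes of the 42 spanned 5.15 FPKM (Ift88) to 25.9 FPKM (Ift20), a 5.04-fold range. Ttc26, an IFT-B subunit outside the 42, was lower at 2.92 FPKM. The kinesin-2 genes spanned 1.54 FPKM (Kif17) to 28.7 FPKM (Kif3a).

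**Figure D1:**
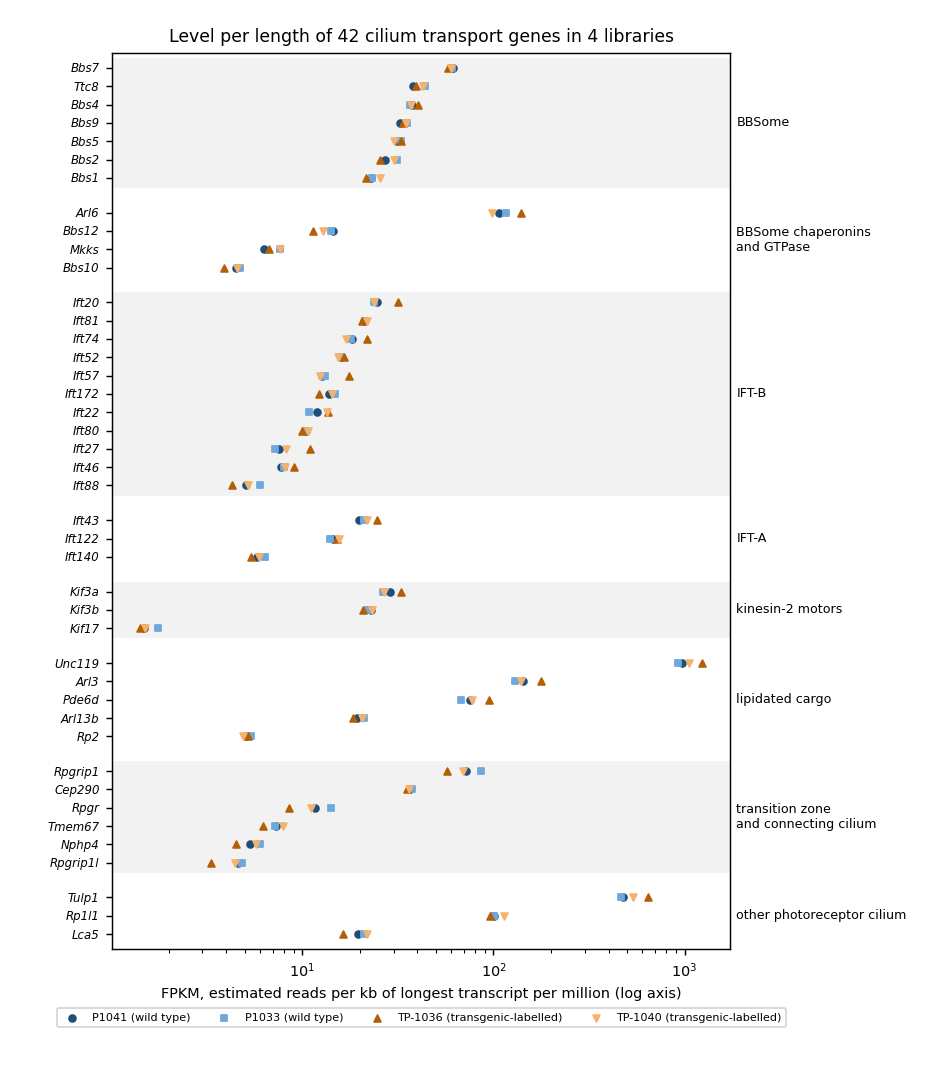
Level of each of the 42 genes as FPKM (log axis) in the 4 libraries, ordered by level within 8 groups of known role. The BBSome genes among the 42 lie within a 2.58-fold range, while Unc119 stands at 923 to 1234 FPKM and Kif17 at 1.42 to 1.75 FPKM.

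Between the genotypes, none of the 42 genes differed past the threshold. In edgeR's quasi-likelihood test with Benjamini-Hochberg adjustment over all genes, 0 of 42 reached an adjusted p of 0.05, as did 0 of the 12687 genes tested (0%), and the smallest adjusted p of a member was 0.538. DESeq2 called 0 of 42 members and 0.544% of all genes. At an unadjusted p of 0.05 edgeR gave 1 member, Tulp1 (higher), against 8.88% of all genes tested (4.72% higher and 4.15% lower), and DESeq2 gave 2 (Tulp1 and Unc119) against 9.21%. Values were higher for 24 members and lower for 18, where 50.4% of all genes tested were higher, with a median log2 difference of 0.03, against 0.002 over all genes. The differences were small as well as uncertain. The median absolute difference was 0.10 on the log2 scale against 0.16 over all genes tested, 3 members (Ift27, Rpgr and Tulp1) differed by more than 1.25-fold against 19.8% of all genes, and 0 differed by more than 1.5-fold against 4.56%.

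The 95% interval of the difference lay within 2-fold in either direction for all 42 members, as for 90.7% of all genes tested. It lay within 1.5-fold for 32 of the 42, against 60.9% of all genes. The remaining 10 members, for which a 1.5-fold difference lies inside the interval, were Ift20, Ift27, Ift57, Unc119, Pde6d, Arl3, Rpgr, Rpgrip1, Rpgrip1l and Tulp1. The groups did not overlap for 14 members, 9 higher and 5 lower, or 33.3%, while 47.8% of all genes tested did not overlap (23.8% higher and 24.1% lower). With 2 libraries against 2, an exact two-sided permutation test cannot give a p below 0.333.

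**Figure D2:**
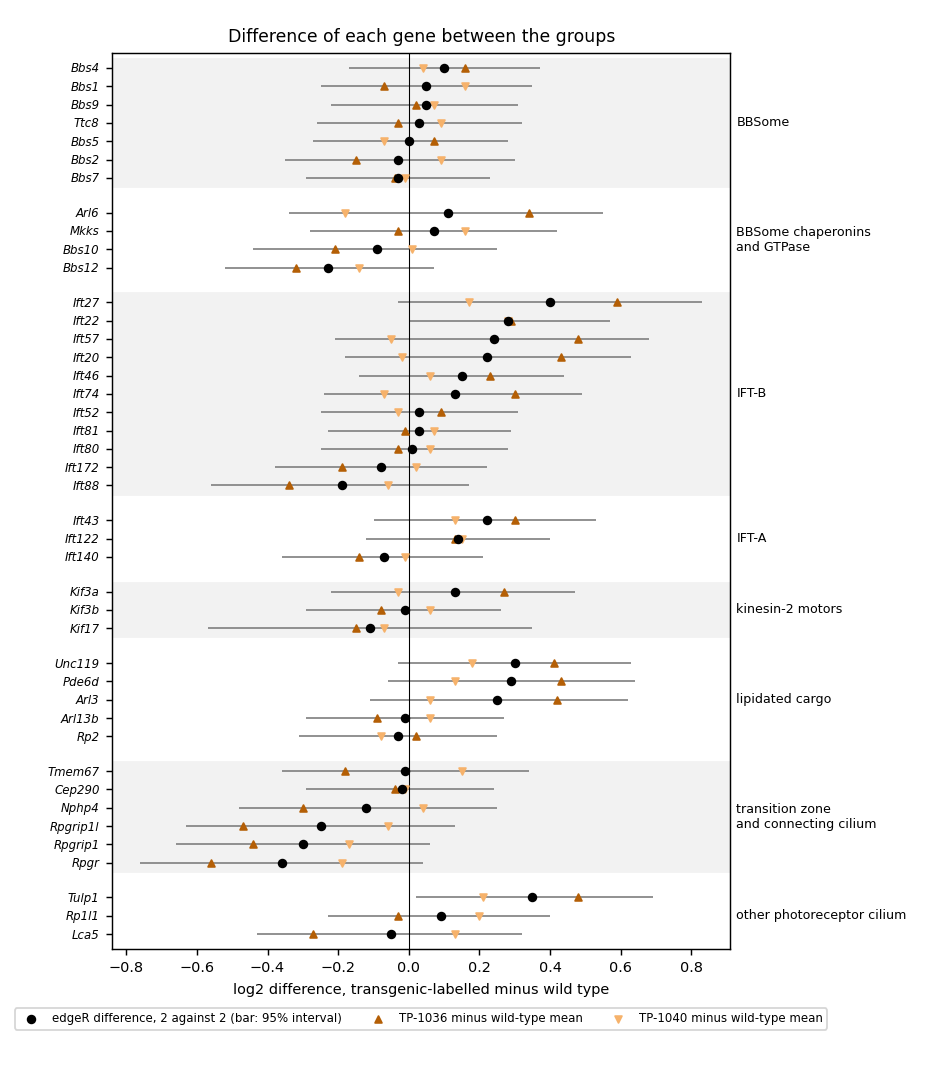
Log2 difference of each gene between the transgenic-labelled and wild-type libraries (black, with the 95% interval from edgeR as a bar), and of TP-1036 and TP-1040 each against the wild-type mean. Only the interval of Tulp1 (0.02 to 0.69) leaves out 0, and TP-1036 lies farther from 0 than TP-1040 for Unc119, Pde6d, Arl3, Rpgr and Rpgrip1.

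The 7 BBSome subunits among the 42 had small differences, with a median absolute log2 difference of 0.029, and 0.073 without TP-1036. Their log2 differences ran from -0.03 to 0.10 (5 higher and 2 lower), and all 7 intervals lay within 1.5-fold. Bbip1, a subunit outside the 42, differed by 0.01. Bbs7, the most abundant subunit, stood at 166 and 161 CPM in wild type (P1041 and P1033, in this order throughout) and 159 and 162 CPM in the transgenic-labelled libraries (TP-1036 and TP-1040), with the groups overlapping. Bbs1, a subunit that binds the GTPase Arl6, had 129 and 128 CPM in wild type and 122 and 144 CPM in the other group, where the wild-type values lie between the others. For Ttc8 (also called Bbs8) the values were 87.2 and 98 CPM against 90.4 and 98.4 CPM. Bbs4 had 141 and 135 CPM against 154 and 141 CPM, a difference of 0.10 ± 0.11 (log2, SE; interval -0.17 to 0.37). Its transgenic-labelled values were the higher ones, with TP-1040 next to P1041. Bbs2, Bbs5 and Bbs9 differed by -0.03, 0.00 and 0.05.

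The genes that help to build or recruit the BBSome had no common direction. Arl6, the GTPase that recruits the BBSome to membranes, stood at 183 and 196 CPM in wild type, 241 CPM in TP-1036 and 167 CPM in TP-1040. The transgenic-labelled libraries thus held the highest and the lowest value. Their mean was 204 ± 51.7 CPM against 189.6 ± 8.78 CPM in wild type (SD, n = 2), so the means differed by less than the spread. Bbs12, one of the chaperonin-like proteins needed to assemble the complex, had 35.5 and 34.1 CPM in wild type against 27.9 and 31.6 CPM. Both transgenic-labelled values were below both wild-type ones, with a difference of -0.23 ± 0.12 (log2, SE; edgeR adjusted p = 0.540). The other chaperonin-like genes, Mkks and Bbs10, differed by 0.07 and -0.09. Mkks shares 29.3% of its annotated exon bases with another entry of the table, on the same strand, so its reads are less certain.

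Among the 11 IFT-B genes of the 42, parts of the train that the outward motor pulls, 9 had higher and 2 lower values (median 0.13). Without TP-1036 the count was 6 higher and 5 lower, with a median of 0.025. Ift27, a small GTPase-like subunit, had 12 and 11.1 CPM in wild type and 17.4 and 13.0 CPM in the other group, the difference of largest size in the whole set at 0.40 ± 0.18 (log2, SE; edgeR adjusted p = 0.538). TP-1036 was high and TP-1040 was just above the wild-type libraries. Ift22, another GTPase-like subunit, had 36.7 and 32.5 CPM against 42.4 and 41.9 CPM, a difference of 0.28 ± 0.12. Here the transgenic-labelled libraries lay together above both wild-type ones. In Ift20, the subunit also found at the Golgi, TP-1036 alone was high, with 28.9 and 27.3 CPM in wild type, 37.8 CPM in TP-1036 and 27.8 CPM in TP-1040. Ift57 had the same pattern, with 46.5 CPM in TP-1036 and 32.2 to 33.5 CPM in the other libraries. Ift81, which binds tubulin together with Ift74, was level at 62.6 and 61.4 CPM against 61.7 and 65.2 CPM. The train subunits Ift46, Ift52, Ift74 and Ift80 differed by 0.15, 0.03, 0.13 and 0.01, and the lower values were those of Ift88 (-0.19) and Ift172 (-0.08). IFT-B subunits with other symbols, outside the 42, differed by 0.05 (Cluap1), 0.05 (Hspb11), 0.01 (Ttc30a1), -0.02 (Ttc30b), -0.12 (Traf3ip1) and -0.17 (Ttc26).

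Of the 3 members in IFT-A, the complex of the return journey, 2 lay higher without overlap, as did 23.8% of all genes tested. Ift43 had 16.6 and 17.3 CPM against 20.9 and 18.6 CPM (0.22 ± 0.13, log2, SE), and Ift122 had 64.3 and 60.6 CPM against 68.1 and 69.4 CPM (0.14 ± 0.11). Ift122 is the member of this group for which the transgenic-labelled libraries gave nearly the same value. Ift140 differed by -0.07. The IFT-A subunits with other symbols, Wdr19, Wdr35 and Ttc21b, are outside the 42 and differed by -0.17, -0.0 and -0.11. Of these, Wdr19 lay lower without overlap. Kif3a and Kif3b, the motor subunits of heterotrimeric kinesin-2, had 92.1 and 82.1 CPM against 105 and 85.2 CPM, and 129 and 122 CPM against 119 and 131 CPM. In both the groups overlapped, with differences of 0.13 ± 0.14 and -0.01 ± 0.11. Kif17, the motor of the homodimeric kinesin-2, was scarce at 5.16 and 5.94 CPM against 4.99 and 5.27 CPM, and its groups overlapped as well.

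Among the genes that carry lipid-anchored proteins, 3 had higher and 2 lower values, with a median of 0.25, and 0 of 5 passed the test. The median was 0.07 without TP-1036 and 0.11 with a term for transcript length in the fit (described below). Unc119, which binds acylated cargo such as the transducin alpha subunit, stood at 1344 and 1244 CPM in wild type and 1720.3 and 1468 CPM in the other group. Pde6d, which binds prenylated cargo such as the rod phosphodiesterase, had 99.1 and 87.0 CPM against 126 and 102 CPM. Arl3, the GTPase that releases cargo from both carriers inside the cilium, had 157 and 141 CPM against 199.7 and 156 CPM. TP-1036 was the highest library for all 3 genes, and TP-1040 lay just above the wild-type libraries for Unc119 and Pde6d and between them for Arl3. The log2 differences were 0.30 ± 0.14, 0.29 ± 0.14 and 0.25 ± 0.15 (SE), with edgeR adjusted p values of 0.538, 0.538 and 0.544. Without TP-1036 they were 0.19, 0.14 and 0.07. The regulators of Arl3 did not share this: Rp2, which switches Arl3 off, differed by -0.03 ± 0.12 and Arl13b, which switches it on, by -0.01 ± 0.12. The cargo itself, in a list of 10 genes such as the transducin gene Gnat1 and the phosphodiesterase genes Pde6a and Pde6b, had 6 higher and 4 lower values and a median of 0.08, which was 0.003 without TP-1036 and 0.033 without P1033. The share of photoreceptor cells and the RNA of each such cell cannot be told apart in whole retina, and beside these genes 19 of 20 rod markers also had higher values, with a median of 0.20. In TP-1036 that median was 0.27, while TP-1040 had 0.11. Their part in the result was not tested.

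**Figure D3:**
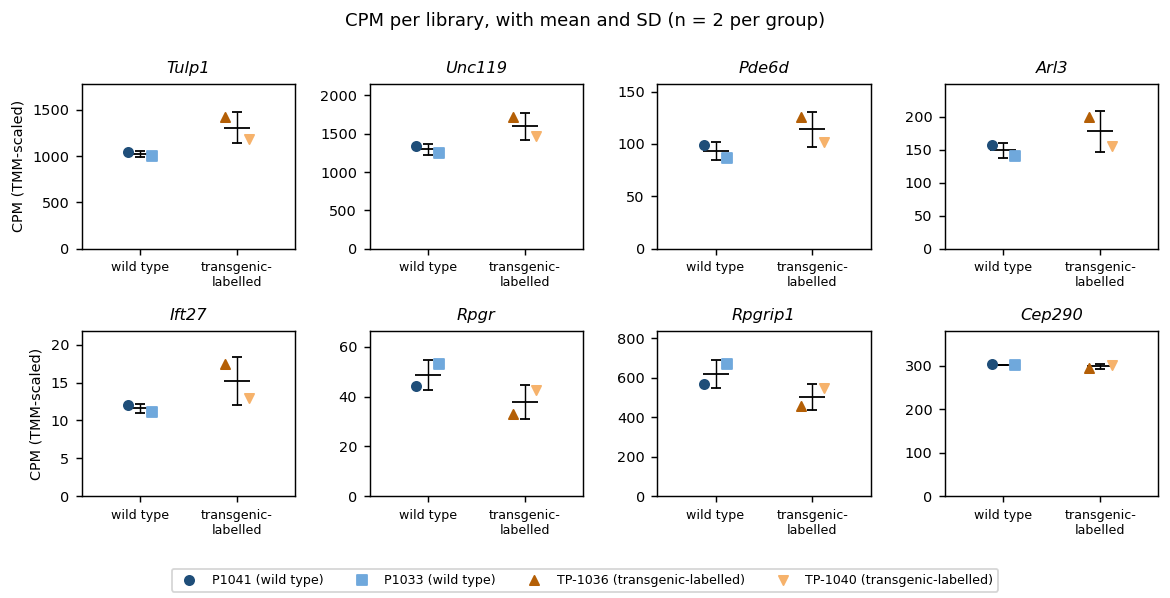
CPM in each library for 8 genes, with the mean and SD of each group (n = 2). Tulp1, Unc119, Pde6d and Ift27 are higher and Rpgr and Rpgrip1 lower in both transgenic-labelled libraries than in both wild-type ones, with TP-1036 farther out than TP-1040 in each, while Arl3 overlaps and Cep290 lies within 294 to 303 CPM.

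Genes of the transition zone and connecting cilium went the other way, with lower values for all 6 (median -0.18), though 0 of 6 passed the test. This count rested on TP-1036: without it 2 of the 6 were higher (Tmem67 at 0.15 and Nphp4 at 0.04) and the median was -0.03. With the length term, 2 of 6 were higher as well (Cep290 at 0.17 and Tmem67 at 0.02), with a median of -0.08. Rpgr, a scaffold of the connecting cilium mutated in X-linked retinal degeneration, had 44.3 and 52.9 CPM in wild type and 33.0 and 42.6 CPM in the other group. Rpgrip1, which anchors Rpgr there, had 569 and 669 CPM against 457 and 549 CPM. In both genes TP-1036 was lowest and TP-1040 lay just under P1041, the lower of the wild-type libraries. The differences were -0.36 ± 0.17 and -0.30 ± 0.15 (log2, SE; edgeR adjusted p = 0.538 for each), and -0.19 and -0.17 without TP-1036. The wild-type libraries themselves differed from each other by 0.26 and 0.23 for these genes (P1033 above P1041). TP-1040 differed by -0.19 and -0.17, but from the mean of that pair, so these sizes are not on one measure. Cep290, a large protein that links the membrane to the microtubules at the gate, was nearly level at 303 and 302 CPM against 294 and 301 CPM (-0.02 ± 0.11). Its interval ran from -0.29 to 0.24. Rpgrip1l, Nphp4 and Tmem67, all of the gate, differed by -0.25, -0.12 and -0.01. Rpgrip1 and Cep290 share 8.7% and 7.6% of their annotated exon bases with a gene on the opposite strand, and no source used here says whether reads were counted by strand.

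The last 3 genes act in the photoreceptor cilium and its axoneme. Tulp1, a tubby-like protein needed for trafficking of rhodopsin, had 1047 and 998 CPM in wild type and 1426 and 1186 CPM in the other group, or 1023 ± 34.4 against 1306 ± 169 CPM (SD, n = 2). Both transgenic-labelled values lay above both wild-type ones, the difference was 0.35 ± 0.14 (log2, SE), and the unadjusted p of 0.0430 in edgeR became 0.538 after adjustment. Without TP-1036 the difference was 0.22. Rp1l1, a doublecortin-domain protein of the axoneme, had 674 and 661 CPM against 652 and 765 CPM, with TP-1036 the lowest and TP-1040 the highest library. Lca5, which encodes lebercilin, differed by -0.05 ± 0.16.

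The library TP-1036 sorted the 42 genes by the length of their transcripts. Over the 42 genes, its difference from the wild-type mean had a Pearson correlation of -0.67 and a Spearman correlation of -0.64 with log2 transcript length, against -0.31 and -0.46 over 12559 tested genes with a known length. The points share the same libraries and the same wild-type mean. For TP-1040 the values over the 42 genes were -0.11 and -0.09, and between the wild-type libraries (P1033 minus P1041) they were 0.31 and 0.33. Among the 21 members with shorter transcripts (838 to 3178 bases), 14 were higher in TP-1036 and 7 lower, with a median of 0.29, and among the 21 with longer ones (3453 to 8211 bases) 5 were higher and 16 lower, with a median of -0.09. In TP-1040 the medians were 0.06 and 0.04. The lipid carriers Unc119, Pde6d and Arl3 have transcripts of 1371, 1306 and 1104 bases, and the median of the transition zone genes is 6018 bases.

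**Figure D4:**
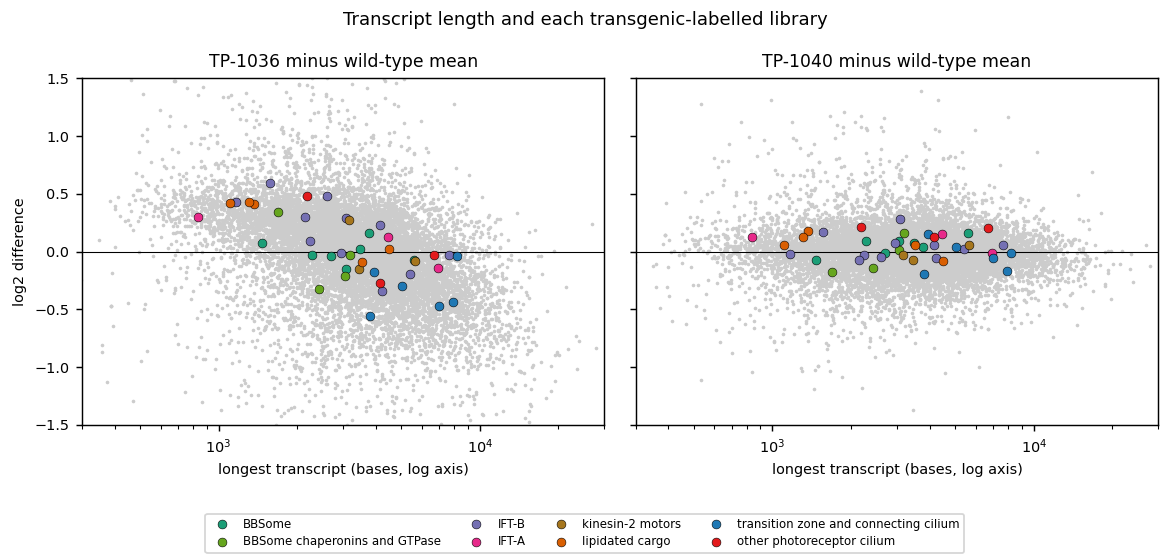
Log2 difference of TP-1036 and of TP-1040 from the wild-type mean against the longest transcript (bases, log axis), with the 42 genes in colour by role over all tested genes in grey. In TP-1036 the short lipid carriers lie above 0 and the long transition zone genes below it, while the correlation in TP-1040 is -0.11; 85 and 15 of the 12559 grey points lie beyond ±1.5 and are not drawn.

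With a length term for each library in the fit, the difference of the lipid carriers shrank from 0.30, 0.29 and 0.25 to 0.19, 0.17 and 0.11 for Unc119, Pde6d and Arl3, and that of Rpgrip1 from -0.30 to -0.13. Tulp1 went from 0.35 to 0.30, Ift27 from 0.40 to 0.30 and Rpgr from -0.36 to -0.34, and Ift22 stayed at 0.28. Other differences grew or turned: Cep290 went from -0.02 to 0.17, Ift80 from 0.01 to 0.18, Rp1l1 from 0.09 to 0.21 and Bbs1 from 0.05 to 0.14. In all, the absolute difference was larger with the length term for 16 members and smaller for 26. In this fit edgeR gave an unadjusted p of 0.0343 for Tulp1 and 0.0395 for Ift22, so that 2 of 42 members were under 0.05 against 11.4% of all genes, and 0 of 42 passed after adjustment. The fits that follow each leave a library out and hold no length term. Without TP-1040, TP-1036 stands alone against wild type. The spread then comes from the wild-type pair and the values shared over genes, and TP-1036 is assumed to vary like them. These calls therefore describe that library and say nothing of the spread among transgenic-labelled retinas. In this fit edgeR called 11 of the 42 members (26.2%) and 30.9% of all genes tested (13.6% higher and 17.3% lower). The 8 higher ones were Arl6, Ift20, Ift27, Ift57, Unc119, Pde6d, Arl3 and Tulp1, and the 3 lower ones were Rpgr, Rpgrip1 and Rpgrip1l. Without TP-1036, P1041 or P1033, 0 of 42 members were called. The share of all genes was 0.213% without TP-1036 (0.166% higher, 0.0473% lower), 0.229% without P1041 (0.150% higher, 0.0788% lower) and 0.717% without P1033 (0.575% higher, 0.142% lower).

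Other genes of the ciliary pathway and RFX genes, 75 tested genes in 6 lists, had no common direction. Of the 75, 35 had higher and 40 lower values, with a median of -0.01, and 0 passed the adjusted threshold. Wdr19, Wdr35 and 17 other IFT and motor genes had a median of 0.01, and Kifap3, the subunit that joins Kif3a and Kif3b, had 164 and 151 CPM against 168 and 153 CPM. Dync2h1, the heavy chain of the return motor, had 130.1 and 135 CPM in wild type, 84.2 CPM in TP-1036 and 125 CPM in TP-1040. Its transcript has 14264 bases, and its log2 difference was -0.34, and -0.04 with the length term. In the further transition zone genes 8 of 20 were higher and 12 lower, with a median of -0.11. In a list of transcription factors (6 tested genes), the 5 RFX genes (Rfx1, Rfx2, Rfx3, Rfx5 and Rfx7) all had lower values and Foxj1 a higher one. Over all genes tested, 50.4% were higher. In TP-1040 the RFX genes lay from -0.02 (Rfx3) to -0.41 (Rfx2) against the wild-type mean. The median of the list was -0.54 in TP-1036 against -0.13 in TP-1040. In the fit it was -0.32, and -0.215 with the length term.

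At an unadjusted p of 0.05, edgeR gave 2 of these 75 genes, both higher, against 8.88% of all genes. Foxj1, the regulator of motile cilia, had 5.26 and 5.33 CPM in wild type and 7.50 and 7.53 CPM in the other group, a difference of 0.50 ± 0.17 (log2, SE; adjusted p = 0.538). Both libraries of each group lay close together. Tmem107, a transition zone membrane protein, had 13.5 and 13.5 CPM against 21.1 and 16.3 CPM, a difference of 0.47 ± 0.16. Of 14 listed markers of motile multiciliated cells 6 were in the table and 4 were tested (Foxj1 among them), with summed levels of 49.9 and 64.3 CPM in wild type and 38.1 and 54.2 CPM in the other group.

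**Figure D5:**
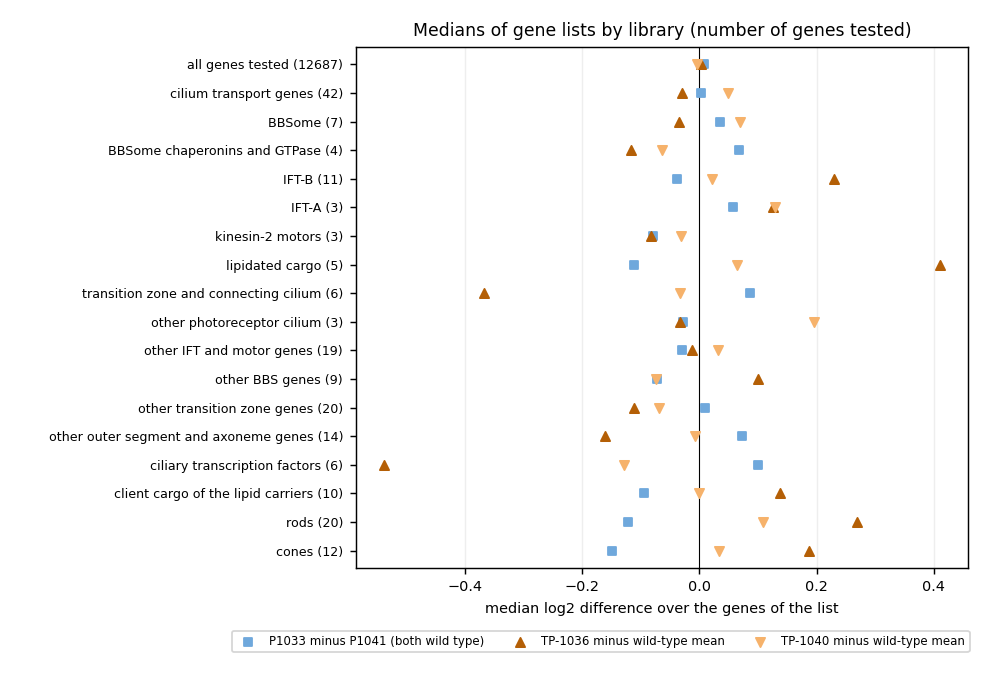
Median log2 difference over the genes of each list for TP-1036 and TP-1040 against the wild-type mean, and for P1033 against P1041, both wild type. The medians of the 42 genes lie at -0.03, 0.05 and 0.00, while the lipid carriers reach 0.41 and the transition zone genes -0.37 in TP-1036, against 0.06 and -0.03 in TP-1040.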

How the data were processed

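RNA of whole retinas was sequenced in 2 wild-type and 2 transgenic-labelled libraries. Bowtie 0.12.2, mm8 and mm9 are named, with no role, per the submitters' processing notes. The sources used here give no counter, annotation or strand setting. The authors deposited estimated counts per gene, not all whole, a unit taken from the values. Columns were matched to groups by WT and ctrl or by case, not to single samples, and 4 other columns of values were not used. The labels do not say whether libraries came from separate animals, so p-values measure only the spread between libraries.

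Counts were rounded and fitted with edgeR 4.0.16 (TMM, quasi-likelihood, R 4.3.3), with limma 3.58.1 and DESeq2 1.42.0 as alternatives. Tested were the genes whose mean FPKM, from the longest GENCODE M21 transcript, reached 1 (the 167 entries with no match got 3472 bases). Each SE was obtained from the log2 difference and the F statistic. The length term is a loess curve (span 0.5) of each library's deviation on log2 length. The fit was run on simulated counts with known changes, all larger than those of the members and with no outlying library. That check therefore does not bear on differences as small as those of the members. Levels in every library are given for members past an unadjusted p of 0.05 and, by role, for the 2 most abundant and the 2 with the largest difference. Ift57 and the genes named outside the 42, other than those past an unadjusted p of 0.05, were chosen after values were seen or for their role. Members and lists were chosen with earlier results of these data known.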

Additional observations from a re-analysis of the deposited data

How the results depend on the processing

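With 2 libraries in each group, the calls depended on single libraries. In the fits without TP-1040, with and without the length term, a smaller share of the members than of all genes was called. Those fits set TP-1036 alone against wild type and say nothing of the spread among transgenic-labelled retinas. edgeR called 0 of 42 members under every alternative that kept all 4 libraries, DESeq2 and limma likewise, and 0 to 8 higher and 0 to 3 lower members when a library was left out, all of them without TP-1040. With the length term and without TP-1040, an alternative chosen after seeing the data, 5 higher and 2 lower members and 3080 genes in all were called. Over all genes the count was 0 in the edgeR fit, 69 in DESeq2, 2 in limma with either pseudocount, 1 with quantile normalization and 1 with no filter. It was 3923 without TP-1040, 27 without TP-1036, and 29 or 91 when P1041 or P1033 was left out. The groups did not overlap for 14 members, or 33.3% against 47.8% of all genes. With a library left out it was 25 (59.5% against 72.7% of all genes) for P1041, 18 (42.9% against 64.5%) for P1033, 32 (76.2% against 71.1%) for TP-1036 and 37 (88.1% against 87.4%) for TP-1040. The median over the 42 genes was 0.03, ran from -0.025 (without TP-1040) to 0.052 (without TP-1036) with a library left out, and was 0.062 with the length term. No paired analysis was possible because the columns carry no replicate numbers.

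With a library left out, the medians ran from -0.030 to 0.073 for the BBSome, -0.112 to 0.040 for its chaperonins and GTPase (-0.081 without P1041, -0.06 without TP-1036), 0.025 to 0.235 for IFT-B, 0.098 to 0.183 for IFT-A, -0.078 to 0.029 for kinesin-2, 0.068 to 0.416 for the lipid carriers, -0.029 to 0.199 for the other photoreceptor genes and -0.363 to -0.030 for the transition zone genes. In the further lists they ran from 0.003 to 0.143 for client cargo, -0.07 to 0.105 for BBS genes, -0.007 to 0.035 for IFT and motor genes, -0.106 to -0.064 for the transition zone (-0.084 without P1033), -0.157 to -0.003 for outer segment and axoneme genes and -0.533 to -0.125 for transcription factors. The length term gave 0.070 for IFT-A, 0.083 for kinesin-2, 0.114 for the lipid carriers, -0.083 for the transition zone genes, 0.215 for the other photoreceptor genes and 0.028 for outer segment and axoneme genes. A mean FPKM of at least 5 gave 0.055 for the chaperonins and GTPase and 0.044 for kinesin-2. Limma on log2(FPKM + 1) gave 0.106 for IFT-A, and total counts gave -0.022 for the further IFT and motor genes and -0.136 for the further transition zone genes. The cause was not tested. The sign turned, in members whose interval includes 0, for 10 with the length term, 15 without TP-1036, 7 without TP-1040 and 1 to 5 under each other setting, and 18 of 42 members kept theirs throughout.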
